A study of Mus musculus with 6 samples.

Results

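The genes described here encode the chaperones and folding enzymes of the endoplasmic reticulum (ER), the machinery that moves proteins into and out of it, and the sensors and transcription factors of the unfolded protein response. The set holds 36 of the 55421 genes in the files, selected by gene symbol from known function. The choice was made with results of the same libraries known, among them the lower level of Hspa5 at 24 months, so the comparison of ages below is a description of these members and not a test of the set. Libraries were made from the cortex of 3 male C57BL/6J mice of 6 months (mice 10, 11 and 17) and 3 of 24 months (mice 2, 4 and 5), all of WT genotype. Every mouse was killed by cervical dislocation under isoflurane, with no other treatment, so age is the only labelled difference between the groups. The comparison shows whether the mRNAs of these genes stood at other levels in old than in young cortex. Values within a group are given below in the order in which the mice are listed here.

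Proteins that are secreted or sit in membranes enter the ER through a channel, the translocon, and fold there with the help of luminal chaperones, lectins that bind their sugar chains, and protein disulfide isomerases. Chains that fail to fold are passed back to the cytosol and degraded, a route known as ER-associated degradation (ERAD). When unfolded chains build up, the sensors Ern1 (IRE1), Eif2ak3 (PERK) and Atf6 switch on genes of the unfolded protein response, many of which carry an ER stress response element (ERSE) in their promoter. In neurons this pathway serves the large load of receptors, channels and secreted peptides made in the cell body. Splicing of the Xbp1 mRNA, the cleavage of Atf6 protein and the phosphorylation steps of the response cannot be read from gene counts.

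Some of the promoters of these genes held a sequence feature that was not itself a criterion of the choice. ERSE was searched as its arms CCAAT and CCACG with 9 bases between them, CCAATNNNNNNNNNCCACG, on both strands of the window from 250 bases before to 50 bases after the RefSeq start site (GRCm38.p6). A window was at hand for 30 of the 36 members, and 9 of these 30 (30.0%, exact 95% binomial interval 14.7 to 49.4) held the element. Among all 27025 genes with a window it was present in 37 genes, or 0.137%, and the 9 members are part of those 37. The members with ERSE were Hspa5, Hsp90b1, Calr, Canx, Pdia6, Dnajc3, Creld2, Syvn1 and Derl3. Since response genes of this kind are known for the element, its presence describes the set and says nothing of whether a factor was bound in these cortices. Their elements are shown with both arms in capitals, read in the direction of CCAAT, to let the spacer bases be compared.

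Hspa5 (chr2:34772025-34772043): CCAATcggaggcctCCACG
Hsp90b1, distal (chr10:86705638-86705656): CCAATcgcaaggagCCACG
Hsp90b1, proximal (chr10:86705533-86705551): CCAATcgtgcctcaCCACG
Calr (chr8:84847075-84847093): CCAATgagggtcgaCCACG
Canx (chr11:50325800-50325818): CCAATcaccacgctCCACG
Pdia6 (chr12:17266491-17266509): CCAATgaaaggcggCCACG
Dnajc3 (chr14:118937827-118937845): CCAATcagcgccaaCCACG
Creld2 (chr15:88819520-88819538): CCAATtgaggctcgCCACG
Syvn1 (chr19:6046532-6046550): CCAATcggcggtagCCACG
Derl3 (chr10:75893242-75893260): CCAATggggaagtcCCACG

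The elements lay close to the RefSeq start site, with their first base between 212 bases (the distal copy of Hsp90b1) and 44 bases (Syvn1) before it. In GENCODE the gene model of Hspa5 begins further upstream, at chr2:34771970, so there its element lies inside the model. Hsp90b1 was the member with 2 copies, which face opposite ways, and the stretch that holds both is shown because it carries the densest arrangement found. It covers chr10:86705510-86705694 on the minus strand, 185 bases upstream of both the RefSeq and the GENCODE start of Hsp90b1, with the arms in capitals.

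Hsp90b1: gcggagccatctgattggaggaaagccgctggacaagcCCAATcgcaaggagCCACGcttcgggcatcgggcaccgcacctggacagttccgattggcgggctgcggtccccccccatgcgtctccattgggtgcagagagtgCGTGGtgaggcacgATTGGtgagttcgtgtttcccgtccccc

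A short form of the element, ERSE-II (ATTGGNCCACG), was found in 2 of the 30 windows, those of Herpud1 and Dnajb11, against 12 of all 27025 genes (0.0444%). In Herpud1 it began 52 bases before the start site, and in Dnajb11 7 bases after it. Neither of these windows also held an ERSE, so the elements counted here do not overlap.

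**Figure D1:**
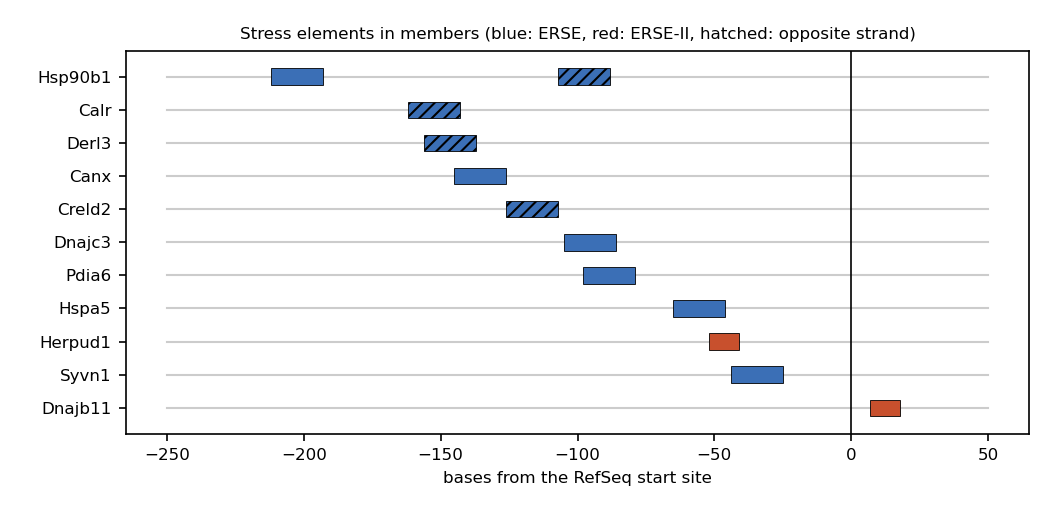
Position of the elements in the 11 members that held one. The horizontal axis gives bases from the RefSeq start site at 0, blue boxes are ERSE, red boxes ERSE-II, and hatched boxes lie on the strand opposite to the gene. All boxes except that of Dnajb11 lie before the start site.

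The members ranged from strongly to weakly expressed, between rank 199 (Canx) and rank 17341 (Trib3) of all genes by mean TPM. In TPM, transcript values corrected for gene length and library size that allow genes to be compared, the mean level over all 6 libraries ran from 606 for Canx and 509.6 for Hspa5 down to 1.71 for Derl3 and 1.37 for Trib3, with a median of 65.2. By mean TPM, 9 members stood among the first 1000 of the 55421 genes. The libraries held 29495379 to 36494240 counts each, no member had fewer than 18 counts in any of them, and all 36 passed the filter of at least 10 counts over the 6 libraries. A second row under the symbol Ddit3, for a short overlapping gene model, was 0 in every library and was not used.

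In summed TPM the members took less of the transcriptome in the old cortices. Their sum was 4776, 4644 and 4818 TPM in the 3 mice of 6 months and 3841, 3957 and 3895 TPM in those of 24 months, so that the groups did not overlap. The mean went from 4746 ± 90.7 to 3898 ± 57.9 TPM (SD, n = 3 each), 17.9% lower, and 15.4% lower when Hspa5 was left out of the sum. As a share of counts the members held 0.501, 0.485 and 0.501% at 6 months and 0.428, 0.437 and 0.424% at 24 months. These shares need no scaling factor between libraries.

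**Figure D2:**
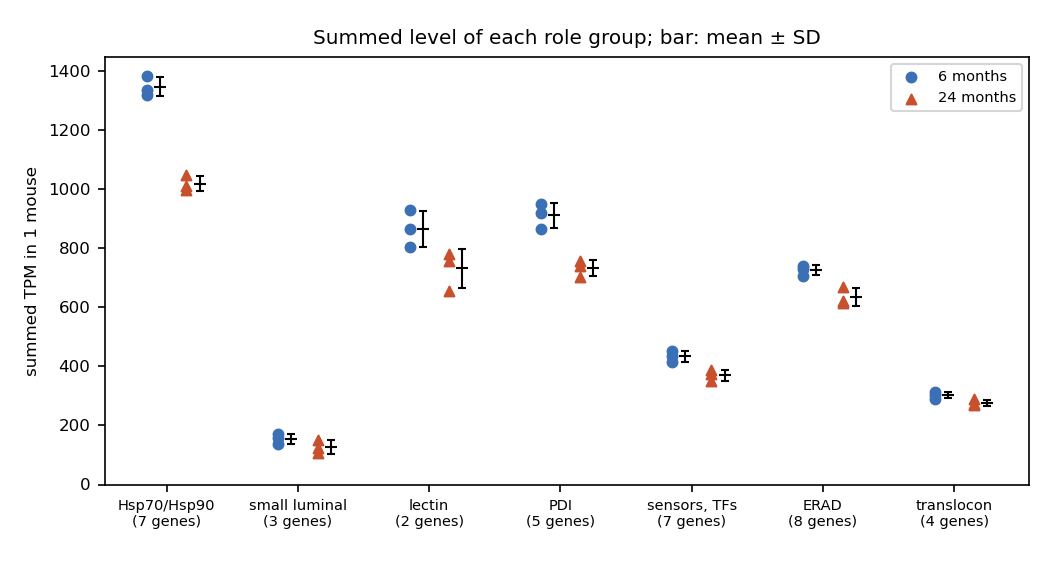
Summed TPM of the members of each role group in each mouse, with circles for 6 months, triangles for 24 months, and bars for the mean ± SD of 3 mice. The Hsp70 and Hsp90 group shows the widest gap between ages, most of it from Hspa5 (without it the gap is 117 TPM), and the small luminal proteins overlap.

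Per gene, edgeR's quasi-likelihood test was fitted over 32905 genes, and log2 fold changes are of 24 against 6 months on counts scaled by TMM factors. At a false discovery rate (FDR) of 10%, 21 of the 36 members were lower at 24 months and 0 were higher. Over all genes tested, 8.33% were called lower and 10.0% higher, and among the 10030 genes with a mean above 10 CPM (counts relative to the library total), where 32 of the members lie, 25.3% were called lower. Because the same contrast was in view when the members were chosen, nothing is read from that excess. At the 1% FDR used in the study the quasi-likelihood test called 0 members and 0 genes in all. At an unadjusted p below 0.05 it gave 25 members lower and 0 higher. The same cut gave 4317 of the 32905 genes lower and 5780 higher. Among the 10030 genes above 10 CPM it gave 3856 lower and 107 higher. The study did report genes at 1% FDR with edgeR and does not name the test within it. At that cut the likelihood ratio test of edgeR called 1703 genes, 3 of them members (Hspa5, Pdia4 and Sel1l), where 0.766% of genes were called lower. The Wald test of DESeq2 called 227 genes, 2 of them members (Hspa5 and Pdia4), beside 0.423% of genes called lower.

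In 25 members every 24-month library lay below every 6-month library in scaled CPM, and in 0 members every 24-month library lay above. The same held in 16.3% and 20.0% of all genes tested, and the lower pattern in 45.6% of the genes above 10 CPM. In deposited TPM, without TMM factors, the groups of P4hb, Atf4, Dnajb9, Dnajc3 and Pdia5 overlapped, which left 20 members. The share over all genes was not counted in TPM, so those 20 have no background beside them. The call itself rested on the libraries at hand. Without mouse 10, mouse 11 or mouse 4 no member was called at 10% FDR, without mouse 2 there were 2, without mouse 17 there were 9, and without mouse 5 there were 20. Over all genes the same 6 fits called 0, 1, 0, 176, 2476 and 7998 genes in either direction, against 6040 with every library. The median log2 fold change of the members stayed between -0.37 and -0.31 in these fits.

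The size of the difference also depended on the scaling. The old libraries held counts in 40208 to 43561 genes and the young ones in 33974 to 35651, and TMM factors were 0.921 to 0.946 at 6 months and 1.04 to 1.10 at 24 months. With TMM factors the members had a median log2 fold change of -0.35, against -0.14 for the 15793 genes above 1 CPM and -0.20 for those above 10 CPM. With library totals alone the medians were -0.15, 0.05 and -0.01, and 3 members were called lower, beside 318 of the 32905 genes tested. The difference between the median of the members and that of genes above 1 CPM was thus -0.21 with TMM factors and -0.20 with totals. Against genes above 10 CPM it was -0.15 and -0.14. A change of scaling shifts all genes nearly alike, so these differences could hardly move, and their agreement is no further support. The same holds for the 31 of the 36 members below the median of genes above 1 CPM under both scalings, and the 30 below that of genes above 10 CPM. The fold changes that follow should be read against a shift with TMM factors. It was -0.14 for genes above 1 CPM and -0.20 for genes above 10 CPM, where 32 of the members lie.

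**Figure D3:**
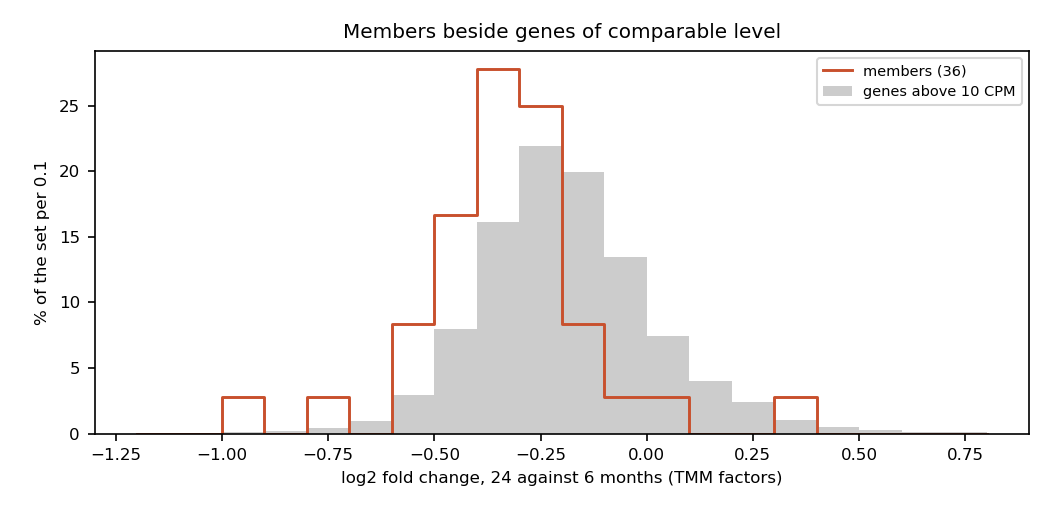
Share of the 36 members (line) and of the 10030 genes above 10 CPM (bars) in each step of 0.1 of log2 fold change, 24 against 6 months, with TMM factors. The members centre on -0.35 and the other genes on -0.20, and the distributions overlap over most of their range.

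Among the Hsp70 and Hsp90 chaperones and their co-chaperones, all 7 had lower scaled CPM in every old library, and 5 were called. In TPM the groups of Dnajb9 and Dnajc3 overlapped. Counts for this and the role groups below stand beside 25.3% of genes above 10 CPM called lower. In 45.6% of those genes every old library lay below every young one in scaled CPM. Hspa5 (BiP), the central Hsp70 of the ER lumen and the protein that holds the stress sensors silent, stood at 702, 732 and 784 scaled CPM at 6 months and 473, 445 and 428 at 24 months. The old mice were all low and closely grouped, about 39.3% below the young by the fit. The log2 fold change was -0.72 with a standard error (SE) of 0.09, at an adjusted p of 0.0312 in edgeR's quasi-likelihood test. It ranged over -0.76 to -0.68 with single libraries left out, where the adjusted p was 0.0266 to 0.166. In TPM its mean was 615 ± 36.4 at 6 months and 404 ± 21.1 at 24 months (SD, n = 3 each).

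Hspa5 was lower at 24 months also beside the other members. Because its lower level was known when the set was chosen, the measures here describe that level and add no support. Hspa5 made up 12.1, 13.2 and 13.6% of the summed TPM of the members at 6 months and 11.1, 10.1 and 9.88% at 24 months. Its ratio to Hsp90b1 in TPM, a measure free of any scaling between libraries, was 1.76, 1.90 and 1.89 at 6 months and 1.59, 1.37 and 1.39 at 24 months. The groups did not overlap in either measure. Its ratio to Canx was 0.794, 1.01 and 1.05 at 6 months and 0.881, 0.681 and 0.635 at 24 months, where mouse 2 lay above mouse 10.

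Hsp90b1 (GRP94), the Hsp90 of the lumen and the member with 2 ERSE copies, gave 379.8, 368 and 396 scaled CPM at 6 months and 283, 309 and 294 at 24 months. Its log2 fold change was -0.37 (SE 0.08). Hyou1 (GRP170), which exchanges the nucleotide on Hspa5, went from 33.0, 33.0 and 36.6 to 24.4, 24.9 and 25.3 scaled CPM, a log2 fold change of -0.46 (SE 0.10). In both genes the gap between the groups exceeded the range of the old mice. Their adjusted p was 0.0537 for Hsp90b1 and 0.0518 for Hyou1 in edgeR's quasi-likelihood test.

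The J-domain proteins, which feed clients to Hspa5 and drive its ATPase, were called in 2 of 4 cases. Dnajb11 (ERdj3) was at 105, 97.1 and 102 scaled CPM in young and 82.2, 81.8 and 69.0 in old cortex, a log2 fold change of -0.39 (SE 0.10, adjusted p = 0.0589). Dnajc10 (ERdj5), a J-domain protein that also reduces disulfides during ERAD, was at 115, 106 and 104 against 69.6, 77.0 and 91.3 scaled CPM (-0.45, SE 0.11, adjusted p = 0.0581). Both were called at 10% FDR, with mouse 5 lowest for Dnajb11 and highest of the old mice for Dnajc10. Dnajb9 (ERdj4), with -0.34 (SE 0.13), and Dnajc3 (p58IPK), with -0.24 (SE 0.11), were not called, at adjusted p of 0.108 and 0.181.

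**Figure D4:**
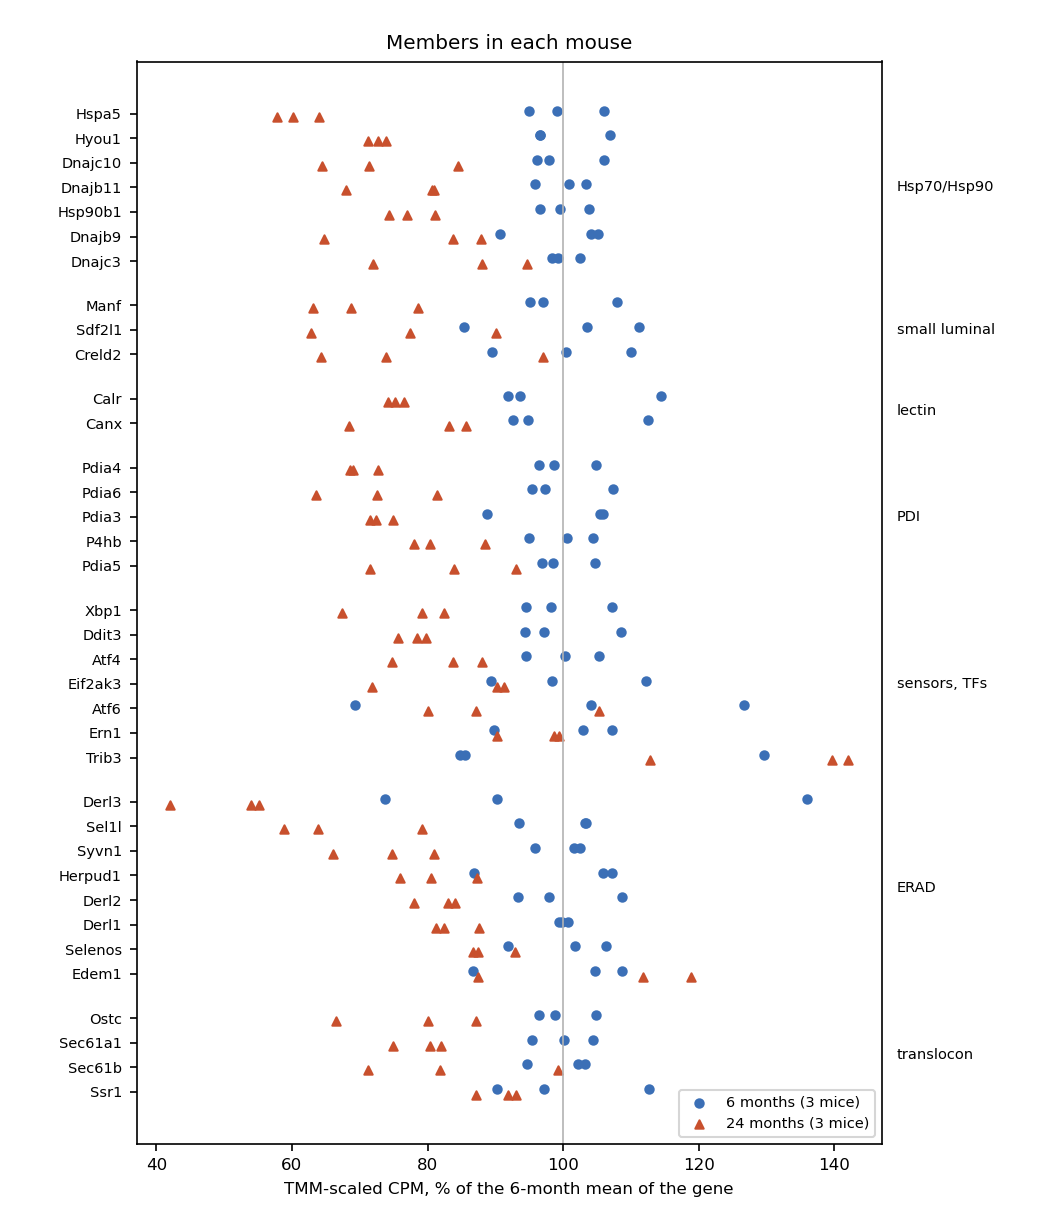
Scaled CPM of the 36 members in each mouse, as a percentage of the 6-month mean of the gene, with circles for 6 months and triangles for 24 months. Members are grouped by role, and in 25 of them all triangles lie left of all circles.

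The lectin chaperones, which hold glycoproteins with trimmed sugar chains, were both called. Calr (calreticulin), the soluble one, stood at 163, 160.0 and 199 scaled CPM at 6 months and 131, 129 and 133 at 24 months (log2 fold change -0.41, SE 0.10, adjusted p = 0.0578). The old mice agreed closely and mouse 17 was the highest. Canx (calnexin), its membrane-bound counterpart and the member of highest TPM, had a log2 fold change of -0.34 (SE 0.12, adjusted p = 0.0919) with 808 to 982 scaled CPM at 6 months and 596 to 747 at 24 months.

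Of the 5 protein disulfide isomerases, which form and reshuffle disulfide bonds, 4 were called and all 5 did not overlap in scaled CPM. In TPM the groups of P4hb and Pdia5 overlapped. Pdia4 (ERp72) was at 63.8, 62.4 and 67.9 scaled CPM in young and 44.7, 47.0 and 44.3 in old mice (log2 fold change -0.51, SE 0.09, adjusted p = 0.0518). Pdia3 (ERp57), the partner of the lectins, was at 404, 340.1 and 406 against 274, 287 and 278 scaled CPM (-0.45, SE 0.10, adjusted p = 0.0518). Pdia6 (P5), which works beside Hspa5, was at 221, 225 and 248 against 189, 168 and 147 scaled CPM (-0.46, SE 0.11, adjusted p = 0.0552). For Pdia3 the nearest values of the groups were those of mouse 11 and mouse 4, and for Pdia6 those of mouse 10 and mouse 2. P4hb (PDI), the classical member of the family, differed by -0.28 (SE 0.09, adjusted p = 0.0834), a call lost whichever library was left out. Pdia5, with 83 to 117 counts per library, differed by -0.27 (SE 0.17) and was not called, at an adjusted p of 0.290.

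Of the small luminal proteins that are induced by ER stress, Manf was called, and Sdf2l1 and Creld2 were not. Manf, a cysteine-rich protein of the lumen that is also secreted as a neurotrophic factor, stood at 36.7, 37.4 and 41.6 scaled CPM at 6 months and 30.3, 26.5 and 24.3 at 24 months (log2 fold change -0.51, SE 0.11, adjusted p = 0.0526). In Sdf2l1, which binds Hspa5 and its J-domain proteins, and in Creld2, mouse 2 lay within the young range and the fold changes were -0.38 (SE 0.16) and -0.35 (SE 0.16). Their adjusted p in the quasi-likelihood test was 0.134 and 0.170.

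No sensor of the response was called, and the groups overlapped in each of the 3. Ern1, the kinase and nuclease that splices Xbp1 mRNA, was at 7.98, 8.32 and 6.96 scaled CPM in young and 7.64, 6.997 and 7.70 in old mice (log2 fold change -0.06, SE 0.13). Eif2ak3, which phosphorylates eIF2alpha and so slows translation, was at 23.5, 29.5 and 25.9 against 18.9, 24.0 and 23.7 scaled CPM (-0.24, SE 0.13). Atf6, a transcription factor held in the ER membrane until stress releases it, was at 102, 56.0 and 84.2 against 64.8, 70.5 and 85.2 scaled CPM (-0.14, SE 0.19). Mice 10 and 11 marked the highest and the lowest Atf6 level of all 6, so the spread at 6 months was wider than any difference between ages. The fitted sign of Ern1 and of Atf6 turned positive with library totals (0.13 and 0.05). The adjusted p was 0.793 for Ern1, 0.237 for Eif2ak3 and 0.654 for Atf6 in edgeR's quasi-likelihood test.

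Of the 4 transcription factors and regulators that act after the sensors, Xbp1 and Ddit3 were called. Xbp1, whose spliced form drives ERAD and chaperone genes, was at 245, 278 and 255 scaled CPM at 6 months and 214, 206 and 175 at 24 months (log2 fold change -0.39, SE 0.10, adjusted p = 0.0611). Ddit3 (CHOP), a factor of prolonged stress linked to cell death, was at 18.3, 18.8 and 21.04 against 15.5, 14.7 and 15.2 scaled CPM (-0.36, SE 0.11, adjusted p = 0.0754). Both were lower in every old mouse. Atf4, the main factor downstream of Eif2ak3, was at 39.4, 43.9 and 41.8 against 36.7, 31.2 and 35.0 scaled CPM and just missed the threshold (-0.28, SE 0.10, adjusted p = 0.107). Trib3, a pseudokinase induced by Atf4 and Ddit3, had only 18, 20 and 29 counts in the young libraries against 25, 33 and 33 in the old. In scaled CPM that was 0.584, 0.579 and 0.886 against 0.771, 0.954 and 0.970, with a log2 fold change of 0.39 (SE 0.27, adjusted p = 0.346), and mouse 2 lay below mouse 17. Trib3 and Edem1 were the members fitted higher at 24 months.

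In ERAD, 5 of the 8 members were called lower. Sel1l, the scaffold of the ubiquitin ligase complex in the ER membrane, was at 365, 365 and 330.4 scaled CPM in young and 208, 226 and 279.8 in old cortex (log2 fold change -0.57, SE 0.12, adjusted p = 0.0518). Syvn1 (Hrd1), the ligase that Sel1l binds, was at 65.3, 69.8 and 69.2 against 45.0, 50.9 and 55.1 scaled CPM (-0.44, SE 0.10, adjusted p = 0.0552). In both genes mouse 5 was the old mouse nearest to the young ones. The Derlins, membrane proteins of the channel through which clients leave, were all called. Derl1 differed by -0.26 (SE 0.09) and Derl2 by -0.29 (SE 0.10). Derl3, at 35, 32 and 56 counts against 22, 24 and 18, had the largest fitted change of the set (-0.98, SE 0.29, adjusted p = 0.0713) and one of the lowest levels, with 1.14, 0.927 and 1.71 against 0.678, 0.694 and 0.529 scaled CPM. Of the 21 calls at 10% FDR, those of Derl3, Derl2, P4hb and Ostc were lost whichever single library was left out, at adjusted p of 0.103 to 0.344 in these fits.

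The other ERAD members were not called. Herpud1, a membrane protein that gathers the complex and is strongly induced by stress, differed by -0.30 (SE 0.11, adjusted p = 0.104). Selenos, a selenoprotein that links the complex to the ATPase Vcp, differed by -0.17 (SE 0.09, adjusted p = 0.243) and turned to 0.03 with library totals. Edem1, a lectin that marks misfolded glycoproteins, was fitted at 0.08 (SE 0.14, adjusted p = 0.714) and had the opposite sign without mouse 10 or mouse 5.

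At the translocon, Sec61a1 and Ostc were called and Sec61b and Ssr1 were not. Sec61a1, the pore itself, was at 70.9, 77.6 and 74.4 scaled CPM at 6 months and 60.9, 55.7 and 59.7 at 24 months (log2 fold change -0.34, SE 0.09, adjusted p = 0.0615). Ostc, which ties the oligosaccharyltransferase to the pore, differed by -0.36 (SE 0.11, adjusted p = 0.0797), and its call was lost whichever library was left out. The small subunit Sec61b gave -0.25 (SE 0.14, adjusted p = 0.242), and Ssr1, a subunit of the associated TRAP complex, gave -0.14 (SE 0.10, adjusted p = 0.356) with TMM factors and 0.05 with library totals.

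**Figure D5:**
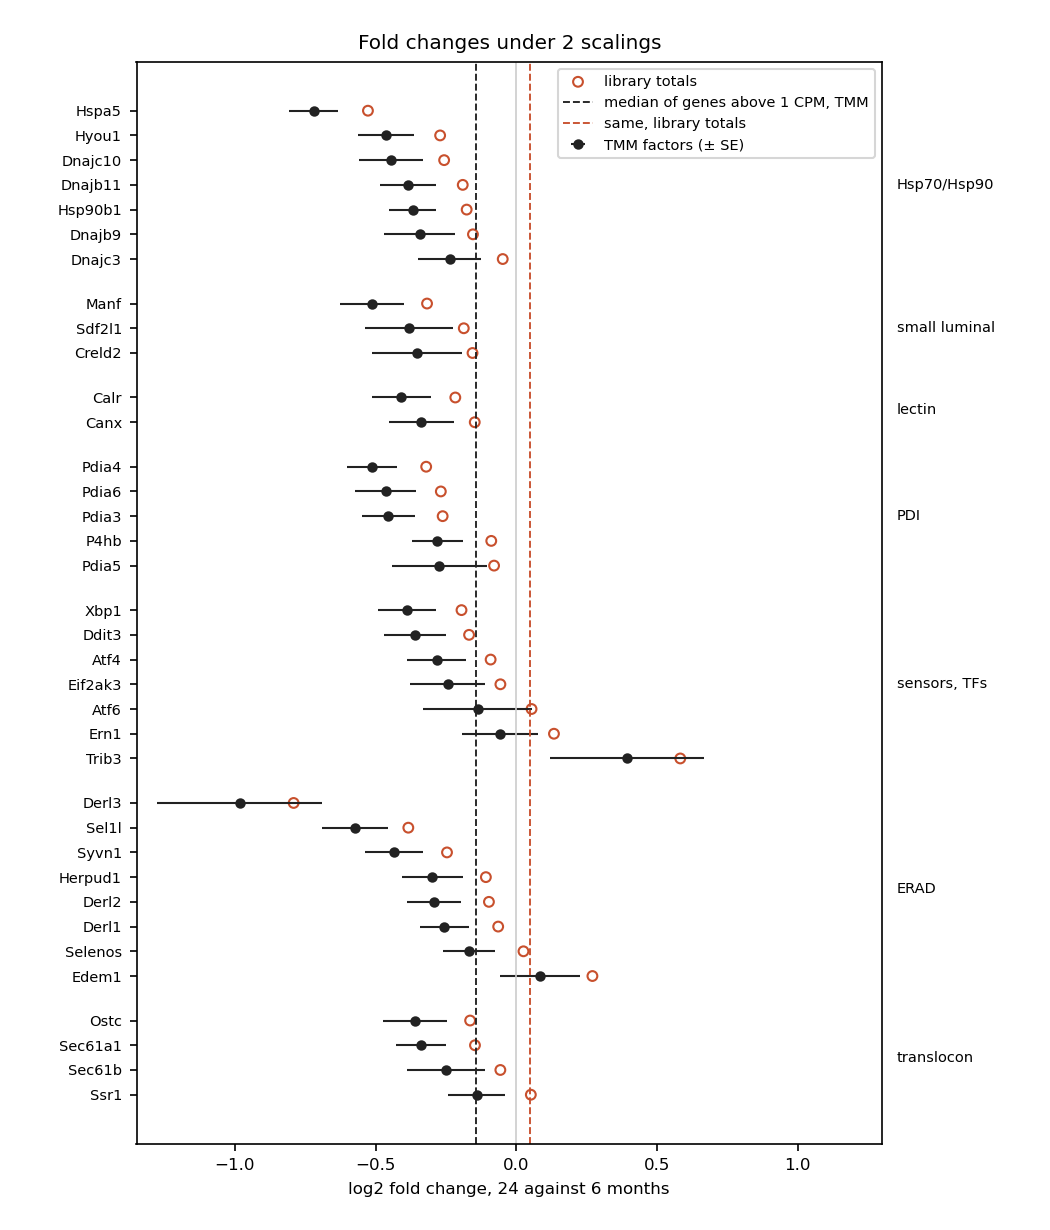
Log2 fold change of each member, 24 against 6 months, with TMM factors (filled, ± SE) and with library totals (open). Dashed lines mark the median of genes above 1 CPM under each scaling, -0.14 and 0.05, and most members lie left of the line of their own colour.

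By role, the summed TPM differed most for the Hsp70 and Hsp90 group, 24.4% lower at 24 months, and least for the translocon, 8.30% lower. The first place rested on Hspa5, whose lower level was known when the set was chosen: without it the other 6 genes of that group were 16.01% lower (733 ± 7.49 against 616 ± 38.3 TPM, SD, n = 3 each). The disulfide isomerases were 19.6% lower, the small luminal proteins 18.2%, the lectins 15.4%, the sensors and transcription factors 14.6% and ERAD 12.4%. Xbp1 made up most of the sum of the sensors and transcription factors, with a mean of 281 TPM at 6 months and 232 at 24 months. The sensors themselves were at 3.34 and 3.47 TPM (Ern1), 15.4 and 14.0 (Eif2ak3) and 30.8 and 30.3 (Atf6). The summed levels of the small luminal proteins overlapped between ages, at 137, 158 and 171 TPM against 150.4, 125 and 106. The other 6 groups did not overlap, and the translocon came nearest to it, at 312, 291 and 304 TPM against 289.5, 273 and 270.0 TPM.

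Members with an ERSE and members without one stood side by side as follows. The 9 with the element had a median log2 fold change of -0.41 and a median level of 193 TPM, with 7 called lower. The 21 with a window and no element had a median of -0.29 and a median level of 68.1 TPM, with 9 called lower. Of all genes tested 8.33% were called lower, and of those above 10 CPM 25.3%. The members were chosen with this contrast known, so nothing is read from these counts. The gap in fold change thus came with a gap in level, and its link to the element was not tested.

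Other genes of the same pathways, taken from lists of known function, stood near the expressed genes as a whole. Of 173 such genes tested, 40 (23.1%) were called lower and 0 higher with TMM factors, beside 25.3% of genes above 10 CPM called lower, at a median of -0.21, near that of all genes above 10 CPM. With library totals 2 were called lower and 2 higher, where 318 of the 32905 genes tested were called lower. Among 47 other luminal chaperones and oxidoreductases, 7 were called lower, led by Erp44 (-0.47), the oxidase Ero1a (-0.50) and the folding sensor Uggt1 (-0.52). Among 34 other ERAD genes, 8 were called, led by Erlin1 (-0.43), the ATPase Vcp (-0.40) and the glycanase Ngly1 (-0.38). Among 21 other genes of targeting, translocation and signal peptide cleavage, 6 were called, led by Srp72 (-0.37), Spcs3 (-0.35) and Srpr (-0.30). For 10 oligosaccharyltransferase subunits the count was 3, namely Rpn1 (-0.29), Stt3a (-0.36) and Rpn2 (-0.26).

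The targets of the integrated stress response, which Atf4 switches on, were read against the same background. Of 34 tested, 11 (32.4%) were called lower and 0 higher with TMM factors, at a median of -0.25, beside 25.3% lower and a median of -0.20 for genes above 10 CPM. Asns (asparagine synthetase) led with -0.46, followed by Aldh18a1 of proline synthesis with -0.46 and Gars, the glycyl-tRNA synthetase, with -0.39. Among 27 other sensors and regulators 5 were called lower, led by Ppp1r15b (-0.49), Eif2s1 (-0.38), which encodes eIF2alpha, and Nck1 (-0.46). The lists overlap in function and the genes were chosen with results of these data known, so their counts are a description.

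Within each age the median coefficient of variation of the members in scaled CPM was 6.70% at 6 months and 10.2% at 24 months. It ran up to 32.3% at 6 months (Derl3) and 21.5% at 24 months (Creld2). Of the old mice, mouse 2 was the lowest for 16 members and the highest for 15. Mouse 2 also had the highest sum of 7 immediate early genes of all mice, 3502 CPM against 567 and 776 CPM in the other old mice and 1450 to 2959 CPM in the young. The part of that activity in the spread of the members was not tested.

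The tissue showed the markers of cortex in every library, and some single markers differed with age. Summed CPM of 6 neuronal markers was 7464 to 8540 at 6 months and 6441 to 7952 at 24 months, with all 6 fitted lower and 1 called. Of the 10030 genes above 10 CPM, 8422 were fitted lower and 25.3% were called lower in the same fit. The sum of 5 oligodendrocyte markers spread over 2060 to 3257 CPM in young and 1252 to 3930 CPM in old mice. Of 5 astrocyte markers 1 was called higher (Gfap) and 4 were fitted lower, with a list median of -0.16 and Aqp4 at -0.40. In scaled CPM Gfap overlapped between ages, at 164 in mouse 5 and 174 in mouse 11. The sum of the 5 was 1609 to 1722 and 1773 to 1838 CPM, which as for the other lists carries no TMM factors. Of 5 microglial markers 1 was called higher (Tmem119, 0.34) and 1 lower (Csf1r, -0.34), and their sum was 254 to 272 and 272.0 to 302 CPM. Endothelial markers, none of them called, summed to 109 to 121 and 86.7 to 159 CPM. The part of any of these in the results above was not tested, and in bulk tissue fewer cells of a type and less RNA per cell cannot be told apart.

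Markers of secretory cells rich in ER were checked as well. Of 7 markers of B cells and plasma cells tested, 2 (Igkc and Jchain) were called higher at 24 months and 0 lower. Over all genes tested 10.0% were called higher and 8.33% lower. Igkc went from 4, 6 and 16 counts to 638, 848 and 35. The sum of that list, most of it from Ighm, was 55.9 to 91.0 CPM at 6 months and 56.1 to 109 CPM at 24 months. The choroid plexus list summed to 17.3 to 41.2 and 22.0 to 47.7 CPM and the red cell list to 70.9 to 92.5 and 62.7 to 83.0 CPM, with 1 red cell marker called lower (Hbb-bt, -0.64). Of the 7 B cell and plasma cell markers, 5 were fitted higher and 2 lower, Ighm (-0.30) and Tnfrsf17 (-0.19). The part of any of these cells in the results above was not tested.

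Exons of 11 members share bases with another annotated gene, over at most 388 bases in 1 exon. The library kit does not mark strand, so reads there cannot be told from those of the other gene. Hspa5 and the other 24 members share none.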

How the data were processed

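The 36 members, their roles and the lists of related and marker genes were chosen with earlier results of these data known. Libraries were prepared from 10 ng of total cortex RNA with a low-input kit and read at 75 bp. Per the labels and the methods of the study, the authors trimmed the reads (Trim Galore 0.6.4), aligned them to GRCm38/mm10 with STAR 2.7.3a and counted exons per gene with featureCounts (Subread 2.0.0), with reads of several positions counted as fractions. The deposited count values are whole numbers for every gene, with 29495379 to 36494240 counts per library. The deposited TPM values, made by the authors from the same counting, are corrected for length and library size. Both files were joined by row, and all zeros fell in the same places.

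Genes with 10 or more counts in total were scaled with TMM factors and tested with edgeR 4.0.16 (glmQLFit, glmQLFTest, R 4.3.3), with Benjamini-Hochberg adjustment over 32905 genes. The members were counted at 10% FDR. DESeq2 1.42.0, limma 3.58.1 on log2(TPM + 1) and log2(TPM + 0.1), the likelihood ratio test, other factors and filters, and each library left out were alternatives, and scripts were tested on simulated data. Scaled CPM are counts relative to the TMM-scaled library size. Each library is 1 mouse. Positions are from GENCODE vM21 and promoter windows from RefSeq. Intervals cover counting error only.

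Every member is named. Values per mouse were set for Hspa5, for the first 16 members by p among those with an unadjusted p under 0.05 or without overlap, and for the sensors and transcription factors. From each related list the 3 genes of smallest p are given. 1 of the marker genes is not reported here.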

Additional observations from a re-analysis of the deposited data

How the results depend on the processing

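The count of 21 members called lower at 10% FDR moved to 3 with library totals, 5 with TMM factors over genes above 1 CPM, 6 with the filterByExpr filter, and 0 and 1 with limma on log2(TPM + 1) and log2(TPM + 0.1). Over all genes the count lower moved from 2741 to 318, 457, 430 (of 20490), 1 and 107 in the same order. With no filter beyond 1 count, DESeq2 size factors, the likelihood ratio test and DESeq2, 1377 to 2280 genes were called lower. The count of members was 14 to 17 in these fits and 0 to 20 with single libraries left out. Without Hspa5 among the members it was 20. No alternative called a member higher. The median log2 fold change of the members moved from -0.35 to -0.15 with library totals, -0.19 with TMM factors over genes above 1 CPM, -0.23 with filterByExpr, -0.31 with no filter beyond 1 count, and -0.24 with either limma fit, and ran from -0.37 to -0.31 with libraries left out. Its difference from genes above 1 CPM (-0.21) was -0.24 to -0.15 with libraries left out and -0.21 to -0.20 otherwise. Its difference from genes above 10 CPM (-0.15) was -0.18 to -0.09 with libraries left out and -0.15 to -0.14 otherwise. Settings that change only the scaling shift all genes nearly alike, so they could hardly move either difference. Members with all old libraries below the young numbered 25, 13 with library totals, 17 with TMM factors over genes above 1 CPM, 20 in TPM and 25 to 29 with libraries left out, and those above numbered 0, 1 with either of the first 2 settings, and 0 to 2 with libraries left out. The share of all genes without overlap is given above for the main scaling only, so these other counts have no background beside them. The members' share of TPM differed by -0.0848 percentage points between ages (-0.0899 to -0.0812 with libraries left out) and their share of counts by -0.0659. The share of promoters with ERSE was 30.0% with spacers of 8 to 10 bases and 36.7% with ERSE-II. Atf6, Ern1, Selenos and Ssr1 changed sign with library totals. No paired analysis was possible because mice of different ages share no number. Depth limits mostly Derl3 and Trib3, with 18 to 56 counts per library.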
